A study of Saccharomyces cerevisiae with 8 samples.

Results

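A set of 315 weak binding regions of the yeast m6A reader Pho92 scored higher in an ime4 mutant than in cells with IME4, whereas the median tested region scored lower in the mutant. They were chosen by their scores, so that direction is a property of the choice and not a result. Touching peaks on the same strand from the 4 irradiated Pho92-HTP libraries were merged into 105079 regions, and the normalized scores of all peaks of 1 library inside a region were added up to give its value, which is 0 where no peak is listed. Members had a value from 0.01 to 0.9 in both ime4 mutant libraries and below 0.01 in both Pho92-HTP libraries, and contig 92 was left out. The same rule with the genotypes exchanged gave a reverse class of 3086 regions, 9.80 times as many. This ratio was 5.03 without spike-in scaling (1543 against 307 members) and 18.4 with scaling to library totals (2746 against 149 members). It was 14.35 and 17.12 with 0.02 and 0.05 as the border, 13.6 with a ceiling of 0.001 for the other genotype, and 14.4 with regions within 50 nt merged. With 1 library left out, the class of that genotype must pass in only 1 library by construction. The ratio was then 1.95 without ime4 mutant replicate 1 and 1.58 without ime4 mutant replicate 2. Without Pho92-HTP replicates 1 and 2 it was 12.0 and 11.5.

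N6-methyladenosine (m6A) is a methyl mark on adenosines of messenger RNA. In budding yeast it is placed during meiosis by a complex whose catalytic subunit is Ime4. Pho92 is a YTH-domain protein, the family that binds m6A directly, and its binding to unmethylated RNA is generally much weaker. CRAC crosslinks a tagged protein to RNA with ultraviolet light, purifies it under denaturing conditions and sequences the RNA fragments left on it.

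All cells were diploid meiotic SK1 yeast with IME1, the regulator that starts meiosis, under the copper-inducible pCUP promoter. Copper sulfate induced IME1 2 h after transfer to sporulation medium (SPO), and cells were treated at 5 h. The groups held 2 libraries each. The ime4 mutant group carried Pho92-HTP in an ime4 mutant background and was irradiated at 254 nm for 80 s. The sample labels say only that IME4 is mutant, and the names of the deposited lists give it as ime4ko, a knockout. The no UV group carried Pho92-HTP with intact IME4 and was not irradiated. The untagged WT group had no HTP tag and was irradiated. The Pho92-HTP group carried the tag with intact IME4 and was irradiated. Both libraries of a group are biological replicates by the series text. Equal amounts of crosslinked fission yeast with Luc7-HTP were added to each sample and set the scaling factor of each library.

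The lists held 47377 and 60778 peaks in the ime4 mutant, 2925 and 2462 in no UV, 2659 and 2138 in untagged WT and 66344 and 41604 in Pho92-HTP. The number of reads per library is not known, and the counting error of the scores was not estimated. From the values, the deposited h2w score was taken to be squared peak height over width, which lets a summit be expressed in read equivalents. A score of 0.01 in a 32-nt peak stood for 16.2 and 21.2 read equivalents in the ime4 mutant libraries, and for 21.3 and 8.74 in the Pho92-HTP libraries. Pho92-HTP replicate 2, scaled by a factor of 5.92, was thus the shallowest of the 4 at a given score. Genes under the regions, and their sequences, were not analysed here, because the positions refer to SK1 contigs and the genome at hand is that of S288C. Positions are printed as in the lists, whose counting base is not stated.

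Members were low signals in the mutant as well. In ime4 mutant replicate 1 they scored 0.01001 at the lowest, 0.0251 at the median and 0.723 at the highest. In ime4 mutant replicate 2 the lowest was 0.01003, the median 0.0206 and the highest 0.648. In Pho92-HTP replicate 1 the median was 0.00115 and the highest 0.00991, and in replicate 2 these were 0.000601 and 0.009996. The genotypes cannot overlap here, because the rule set 0.01 as the border. In read equivalents the median summit was 25.3 and 30.2 in the ime4 mutant libraries, against 7.53 and 2.00 in the Pho92-HTP libraries. At most members the difference thus rests on a small number of reads.

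Absence from a list was common in Pho92-HTP. No peak was listed for 109 members in replicate 1 and for 133 in replicate 2, and 80 members (25.4%) were listed in neither. Another 153 were listed in both. Among those 153, the mean score in the ime4 mutant over that in Pho92-HTP had a median log2 ratio of 2.90 (quartiles 2.09 and 3.73). A listed 0 does not show that RNA was absent, since the shoulder of a taller peak may carry no peak of its own.

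**Figure D1:**
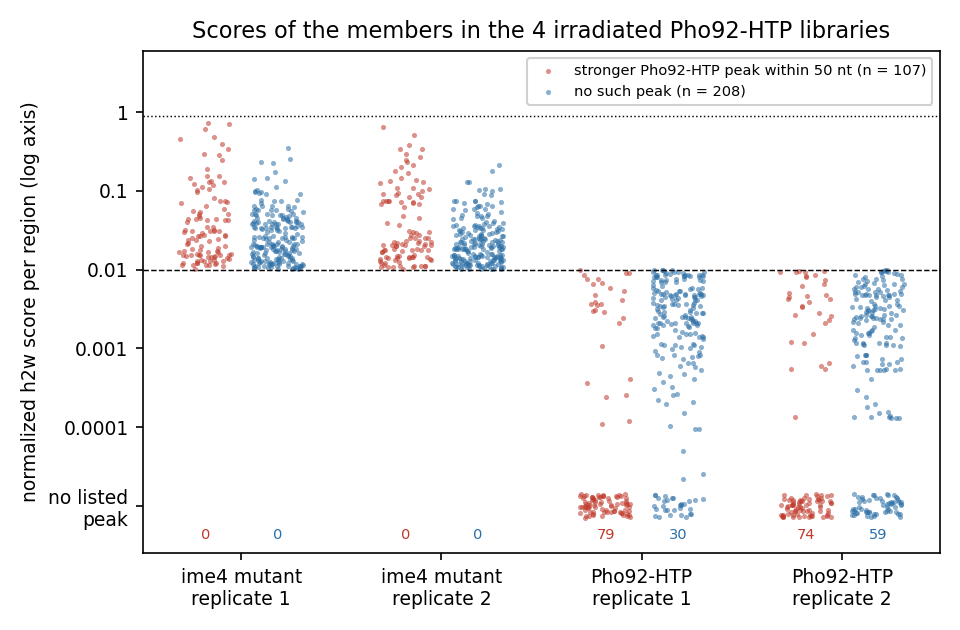
Normalized h2w score of each member (log axis) in the 4 irradiated libraries, with 1 point per region, split by whether a stronger Pho92-HTP peak lies within 50 nt. Dashed and dotted lines mark 0.01 and 0.9, and the numbers at the bottom count members with no listed peak. Of the 107 members beside a stronger peak, 79 and 74 have no listed peak in Pho92-HTP replicates 1 and 2, against 30 and 59 of the 208 others.

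Most regions that met the condition in 1 mutant library did not meet it in the other. Among regions below 0.01 in both Pho92-HTP libraries, 1974 fell between 0.01 and 0.9 in ime4 mutant replicate 1 only and 1540 in replicate 2 only, beside the 315 in both. In the reverse direction 3039 and 4001 regions passed in 1 Pho92-HTP library only, beside the 3086 in both. The regions passing in both replicates were thus a small share of the candidates in the mutant direction and a larger one in the other. Within the members, the median absolute log2 ratio between the mutant replicates was 0.80, against 0.94 between the Pho92-HTP replicates in the reverse class.

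Peak position was used by the rule only through touching. The centres of the mutant replicates' peaks lay a median of 7 nt apart in members, against 2 nt between the Pho92-HTP replicates in the reverse class. They lay within 5 nt in 146 members (46.3%), against 2137 reverse regions (69.2%). Reverse regions were also stronger, with a median mean score of 0.0517 against 0.0255 in members. At a mean value under 0.02 the shares within 5 nt were 43.0% of 114 members and 49.9% of 445 reverse regions. From 0.02 to 0.05 they were 39.8% of 133 and 61.4% of 1059, and from 0.05 upward 64.7% of 68 and 80.0% of 1582. The share was lower in members in each band of strength, with the nearest values in the weakest band. These shares carry no test.

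Members were a median of 52 nt long (23 to 156), against 51 nt in the reverse class and 34 nt over all regions. They lay on both strands, with 164 on plus and the rest on minus, and on 65 contigs.

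Part of the members lay beside a stronger Pho92-HTP peak. Within 50 nt on the same strand, 107 members (34.0%) had a peak in at least 1 Pho92-HTP library that exceeded the member's higher mutant value. In 74 (23.5%) both Pho92-HTP libraries had such a peak, and in 42 (13.3%) a Pho92-HTP peak there was above 0.9. For the reverse class, a stronger ime4 mutant peak lay within 50 nt of 117 regions (3.79%). Both mutant libraries had one in 29 of these, and in 5 (0.162%) a mutant peak was above 0.9. The share was larger in members at each strength. It was 36.8% of 114 members and 8.76% of 445 reverse regions at a mean value under 0.02, 20.3% of 133 and 5.00% of 1059 from 0.02 to 0.05, and 55.9% of 68 and 1.58% of 1582 from 0.05 upward. Both genotypes' scores near a member come from the libraries that chose it, so these shares are descriptions. The share over all regions was not taken. Over all 105002 regions outside contig 92, the highest score within 50 nt was lower in both mutant libraries at 24% and higher at 11.7%. A stronger Pho92-HTP peak is thus not read as a trait of the members.

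The choice of window set the size of the share with a stronger peak but not the order of the classes. With 25, 100, 200 and 500 nt, a stronger peak of the other genotype was found for 24.1%, 45.7%, 58.7% and 71.1% of members, and for 1.91%, 6.77%, 10.5% and 15.9% of the reverse class. The share over all regions with any listed peak within 50 nt was not taken, so the next counts are not read as a trait of the members. Some Pho92-HTP peak, however weak, lay inside or within 50 nt of all 315 members, and only 80 of them had none inside the region itself. The reverse class was close, with some ime4 mutant peak within 50 nt of 2932 regions (95.0%).

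Taking the highest score within 50 nt in each library, both ime4 mutant libraries exceeded both Pho92-HTP libraries at 183 members (58.1%). Over all 105002 regions outside contig 92 this held for 11.7%. Both mutant libraries were below both Pho92-HTP libraries at 68 members (21.6%), against 24% over all regions. The rule used the same contrast, so nothing is read from the difference between these shares. In the reverse class the highest local score was higher in both Pho92-HTP libraries at 2914 of 3086 regions (94.4%). With 25 nt the mutant was higher at 68.9% of members, and with 500 nt at 24.4%. The share of members with the mutant higher thus fell as the window widened. In the reverse class the share with Pho92-HTP higher was 87.7% at 500 nt. Shares over all regions were taken at 50 nt only, so no contrast between the classes is read from the wider windows.

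**Figure D2:**
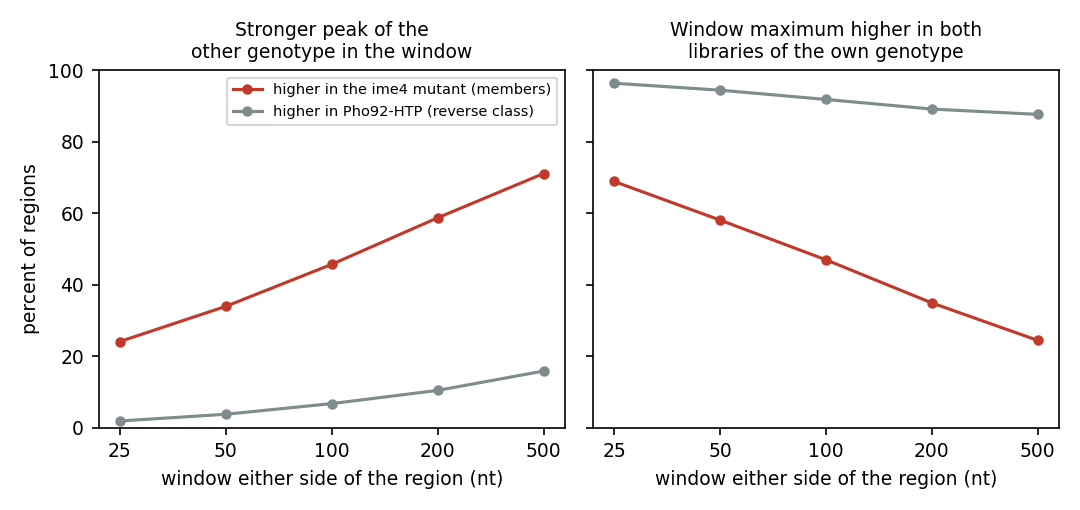
Percent of regions with a stronger peak of the other genotype in the window (left) and with the window's highest score higher in both libraries of their own genotype (right), for windows of 25 to 500 nt either side. Members lie between 24.1% and 71.1% on the left, all above the reverse class, and between 68.9% and 24.4% on the right, all below it.

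The 107 members beside a stronger peak differed in listing and length from the 208 without one. In the first set 64 (59.8%) were listed in neither Pho92-HTP library, and 18 were listed in both. In the second set 16 (7.69%) were listed in neither and 135 in both. Median length was 39 nt in the first set and 60 nt in the second. Length depends on the peaks merged into a region, so it is not independent of the listing. Summits were of like height in the mutant, at medians of 25.6 and 31.3 read equivalents in the first set and 24.7 and 29.4 in the second.

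Beside the stronger peaks, the highest score within 50 nt had medians of 0.0419 and 0.0386 in the ime4 mutant libraries, against 0.249 and 0.294 in the Pho92-HTP libraries. Away from them the medians were 0.0253 and 0.0203 in the ime4 mutant, against 0.00435 and 0.00366 in Pho92-HTP. The order of the genotypes was thus opposite in the sets, as the split itself implies.

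**Figure D3:**
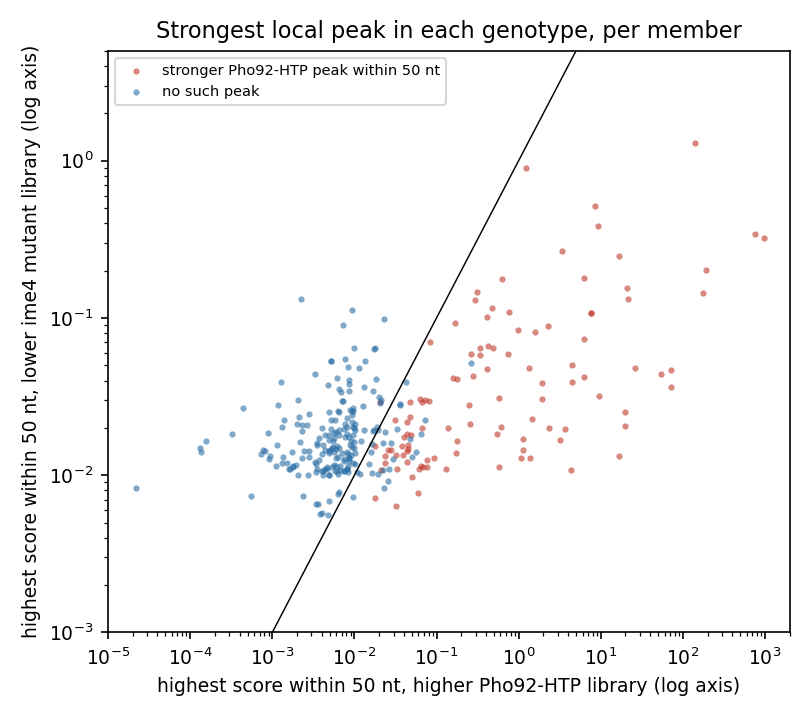
Highest score within 50 nt of each member, with the lower of the ime4 mutant libraries on the vertical axis and the higher of the Pho92-HTP libraries on the horizontal axis (both log axes); the line marks equal scores. Of the 183 members above the line, 1 has a stronger Pho92-HTP peak, and members with one spread to a Pho92-HTP score of 959.

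By the rule, a stronger Pho92-HTP peak could only lie in a region apart from the member. Touching peaks were merged, and members scored below 0.01 in both Pho92-HTP libraries. That the peaks were separate is thus no result, and the distances below are descriptions. Centres lay a median of 52.5 nt apart (34 to 141), and the gap between the regions had a median of 15 nt. The neighbour scored a median of 5.66 times the member's higher mutant value, and over 10 times in 45 cases. It lay on the 5′ side of 51 members and on the 3′ side of 56. At 73 of the 107, the neighbouring region scored lower in both ime4 mutant libraries than in both Pho92-HTP libraries, and the opposite occurred at 0. The neighbours were picked as Pho92-HTP peaks above the member's mutant values, so this direction follows from the choice.

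**Figure D4:**
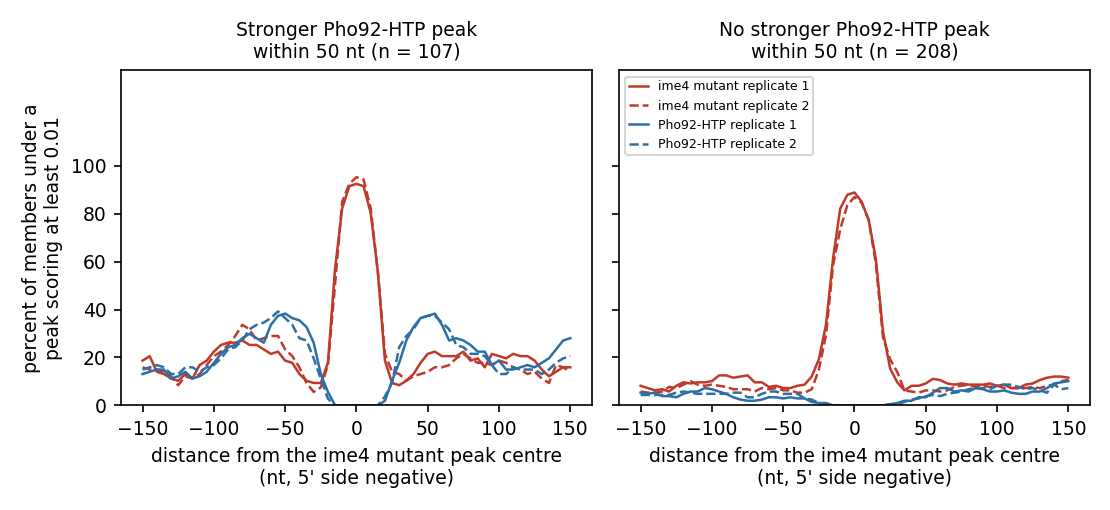
Percent of members under a peak scoring at least 0.01, by distance in nt from the centre of the ime4 mutant peak, for each library and for members with (left) and without (right) a stronger Pho92-HTP peak within 50 nt. In both panels the Pho92-HTP libraries are at 0 at the centre, which the rule fixes, because members score below 0.01 in Pho92-HTP. On the left they are between 36.4% and 38.3% at 50 nt on either side, and the mutant libraries between 14.02% and 23.4% there. On the right Pho92-HTP stays between 2.89% and 4.81% at that distance.

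A model across all features set these values against the series. limma was fitted to the 8846 regions of at least 0.01 in at least 2 of the 4 libraries, on log2(normalized score + 2.28e-05), with Benjamini-Hochberg adjusted p under 0.05 as the threshold. It called 107 regions higher in the ime4 mutant (1.21%) and 2461 lower (27.8%), with a median difference of -2.98. Of the 315 members, 98 were called higher and 0 lower. Their median difference was 5.60 (quartiles 3.11 and 9.15) with a median SE of 1.39. The members were picked for this contrast, so neither count is evidence about them.

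The calls followed the listing. All 80 members listed in neither Pho92-HTP library were among the 98, and only 4 of the 153 listed in both were. A pair of zeros adds no spread to a group, so differences there depend on the pseudocount and on the listing. Without Pho92-HTP replicate 1, and likewise without Pho92-HTP replicate 2, 0 members were called higher. By position, 67 of the 107 members beside a stronger peak were called, and 31 of the 208 others.

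Summing over regions closer than 50 nt to each other removed most of the calls. The 315 members fell into 285 joined regions with a median length of 521 nt. Of these, 19 were called higher in the ime4 mutant and 65 lower, and 201 were not called. Over all 6378 joined regions 0.674% were called higher and 34.9% lower. The median difference of joined regions holding a member was -0.10. Where a stronger peak lay within 50 nt, 98 joined regions gave 1 call higher and 52 lower, with a median of -2.75. Where none did, 191 joined regions gave 19 higher and 15 lower, with a median of 0.98. Joined regions that hold members of both kinds are counted in both sets. Joined regions of the reverse class gave 1 call higher and 1479 lower of 2643. These counts reuse the libraries that chose the members and defined the stronger peaks, so they describe the joined regions and test nothing about them.

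The 10 members with the highest lower mutant value were all listed at 0 in both Pho92-HTP libraries, and all had a stronger Pho92-HTP peak within 50 nt. The strongest, NCSL01000024.1:2507-2540 on minus, scored 0.610 and 0.384 in the ime4 mutant libraries, or 128 and 131 read equivalents. Its neighbour at 2458-2491 was listed at 0 in both mutant libraries and scored 9.31 and 4.86 in the Pho92-HTP libraries. The genotypes thus had peaks of their own 49.5 nt apart, each where the other listed none. The joined region scored 0.690 and 0.446 in the ime4 mutant and 12.7 and 13.02 in Pho92-HTP, a difference of -4.53 ± 0.56 (SE). Differences of single joined regions are given as descriptions, with no test, since these libraries chose the members.

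Some members lay next to very strong Pho92-HTP peaks and scored far below them. NCSL01000002.1:433561-433593 on plus scored 0.723 and 0.344 in the ime4 mutant, while the neighbour at 433488-433522 scored 0.267 and 0.1004 in the ime4 mutant and 765 and 514 in Pho92-HTP. NCSL01000032.1:51232-51289 on plus scored 0.703 and 0.244 in the ime4 mutant, and its neighbour at 51145-51200 scored 0.102 and 0.321 in the ime4 mutant and 959 and 211 in Pho92-HTP. The member exceeded what was listed of its neighbour in both mutant libraries on contig 2, and in replicate 1 on contig 32. The joined regions differed by -8.89 ± 0.69 and -6.53 ± 0.84 (SE).

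Separate peaks in each genotype were also present on contigs 5 and 17. NCSL01000005.1:75024-75060 on minus scored 0.246 and 0.505 in the ime4 mutant, and the neighbour at 75064-75095 scored 16.9 and 9.29 in Pho92-HTP and 0 in both mutant libraries. NCSL01000017.1:50096-50132 on minus scored 0.456 and 0.176 in the ime4 mutant, and the neighbour at 50054-50084 scored 0.600 and 0.632 in Pho92-HTP and 0 in both mutant libraries. On contig 17 both Pho92-HTP scores were above both mutant scores of the member, with a smaller gap than on contig 5. Its joined region differed by -1.06 ± 0.72 (SE).

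For the other 5, mutant scores and nearby Pho92-HTP scores were as follows. NCSL01000023.1:61335-61368 on plus scored 0.485 and 0.233 in the ime4 mutant, with up to 8.40 and 3.57 nearby in Pho92-HTP. Its joined region differed by -1.28 ± 0.68 (SE). NCSL01000035.1:4469-4504 on minus scored 0.288 and 0.201, with 61.6 and 189 nearby in Pho92-HTP. The contig 35 site and the remaining 3 had negative differences once joined. NCSL01000055.1:18440-18489 on minus scored 0.155 and 0.338, with 15.5 and 21.1 nearby. NCSL01000024.1:65399-65434 on plus scored 0.154 and 0.139, with 5.66 and 6.19 nearby. NCSL01000008.1:302166-302193 on plus scored 0.135 and 0.265, with 1.56 and 3.35 nearby. All 10 strongest members thus lay in joined regions with a lower summed score in both mutant libraries than in both Pho92-HTP libraries.

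Members whose surroundings also scored higher in the mutant were examined next. The 5 strongest were picked, after their values were seen, among members with no stronger Pho92-HTP peak within 50 nt whose highest local score was higher in both mutant libraries. NCSL01000060.1:631-676 on minus scored 0.231 and 0.131 in the ime4 mutant, against 0.00224 and 0.000135 in Pho92-HTP. NCSL01000058.1:343-391 on plus scored 0.112 and 0.176 in the ime4 mutant, against 0.00865 and 0.00938 in Pho92-HTP. Both lie near the start of their contigs. NCSL01000001.1:299195-299276 on minus scored 0.225 and 0.0900 in the ime4 mutant, against 9.52e-05 and 0.00912 in Pho92-HTP. The joined regions of these 3 had differences of 3.17 ± 0.53, 3.72 ± 0.92 and 4.77 ± 1.13 (SE), a direction that the choice of these members favours.

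On contig 60 the member was a small part of a stronger stretch. The joined region at 366-676 scored 7.91 and 8.71 in the ime4 mutant, against 0.971 and 0.878 in Pho92-HTP. NCSL01000010.1:226095-226133 on minus scored 0.0641 and 0.0709 in the ime4 mutant, against 0.000818 and 0.00992 in Pho92-HTP. NCSL01000004.1:109954-109988 on plus scored 0.0631 and 0.0737 in the ime4 mutant and 0 in both Pho92-HTP libraries, with a Pho92-HTP peak of 0.0175 in replicate 1 next to it. Their joined regions differed by 3.72 ± 1.496 and 6.78 ± 2.99 (SE).

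For comparison, the strongest reverse region, NCSL01000001.1:151729-151762 on plus, scored 0 and 0.00384 in the ime4 mutant and 0.877 and 0.873 in Pho92-HTP. NCSL01000010.1:170911-170977 on minus scored 0.00519 and 0.00323 in the ime4 mutant and 0.793 and 0.861 in Pho92-HTP. The next 3, on contigs 2, 63 and 1, scored 0.754 to 0.887 in Pho92-HTP. The 5 joined regions holding them had differences between -8.56 and -3.14, in the direction for which they were chosen.

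The threshold of 0.01 cut a continuous range. The members nearest to it had a higher Pho92-HTP value between 0.00990 and 0.009996, for example NCSL01000018.1:121460-121503 on plus, with 0.0503 and 0.0150 in the ime4 mutant against 0.00729 and 0.009996 in Pho92-HTP. The regions just outside had a higher Pho92-HTP value between 0.01003 and 0.0101. One of them, NCSL01000098.1:689-755 on plus, scored 0.0936 and 0.207 in the ime4 mutant against 0.00459 and 0.0101 in Pho92-HTP. Its mutant scores were above those of most members.

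That region lies in the densest stretch of members. Chained at up to 500 nt on the same strand, 253 members stood alone and 62 fell into 27 stretches, so that neighbouring members may share a transcript and are not independent. The summed score of a stretch was higher in both mutant libraries than in both Pho92-HTP libraries in 16 of the 27 and lower in 9, and the genotypes overlapped in 2. Stretches run from the first to the last member, and members were chosen as higher in the mutant, so the choice favours higher mutant sums. No share over stretches without members was taken, so nothing is read from these counts. The longest of the 27 stretches held 6 members on the plus strand of contig 98, from 39 to 1231. All 17 regions there summed to 0.506 and 0.352 in the ime4 mutant, against 0.0630 and 0.0865 in Pho92-HTP. On this contig 9 regions passed the filter of the model, and none was in the reverse class. The plus strand of the whole contig summed to 0.548 and 0.405 in the ime4 mutant, 0.0141 and 6.60e-05 in no UV, 0 and 1.70e-05 in untagged WT and 0.0915 and 0.115 in Pho92-HTP. No peak was listed on its minus strand in any of these libraries.

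The 4 stretches of 3 members differed in their sums, which count only what lies between the first and the last member. On contig 17 (minus, 49184-49359) the sums were 0.588 and 0.222 in the ime4 mutant, against 0.00140 and 0.00117 in Pho92-HTP. On contig 1 (minus, 299195-299476) they were 0.505 and 0.139 against 0.000741 and 0.0155. On contig 35 (minus, 10525-11368) they were 0.197 and 0.135 in the mutant against 0.0301 and 0.0507. Both mutant sums were above both Pho92-HTP sums in these 3 stretches. A stronger Pho92-HTP peak lay within 50 nt of 2 of the 3 members on contig 17, of 0 on contig 1 and of 1 on contig 35. On contig 17 no Pho92-HTP peak inside the stretch scored above 0.00140, so the stronger peaks lay outside its bounds and were not summed. On contig 8 (minus, 280785-281348) the sums were 0.226 and 0.183 in the ime4 mutant, against 20.3 and 8.44 in Pho92-HTP, and all 3 members there had a stronger Pho92-HTP peak within 50 nt. Here Pho92-HTP peaks of 19.9 and 8.33 lay inside the stretch, so the contrast with contig 17 depends in part on where the stretches end.

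Members were 3.56% of the 8846 regions that passed the filter. Among 48 contigs with at least 50 such regions the median share was 3.18%. The highest shares were 11 of 109 on contig 32 (10.1%), 7 of 99 on contig 27 (7.07%), 10 of 149 on contig 24 (6.71%), 8 of 122 on contig 35 (6.56%) and 20 of 330 on contig 8 (6.06%). These contigs were ranked by the share itself.

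The control libraries took no part in the choice of members. A peak was listed at 37 and 34 members in no UV and at 29 and 31 in untagged WT. As shares of the 315 this was 11.3% ± 0.673 in no UV and 9.52% ± 0.449 in untagged WT (SD, n = 2 each). The difference was not past the threshold in a two-sided exact permutation test (p = 0.333), and 0.33 is the smallest p that 2 against 2 libraries allow. Over all regions outside contig 92 the shares were 2.36% ± 0.317 and 2.14% ± 0.333 (SD, n = 2 each). In the reverse class they were 5.46% ± 0.665 in no UV and 4.31% ± 0.642 in untagged WT, and in the 1201 regions scoring 0.01 to 0.9 in all 4 irradiated libraries 20.6% ± 4.83 and 20.8% ± 3.83 (SD, n = 2 each). In each control library, the listed share of members lay above that of the reverse class and below that of the regions weak in both genotypes. No test was run between the classes.

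**Figure D5:**
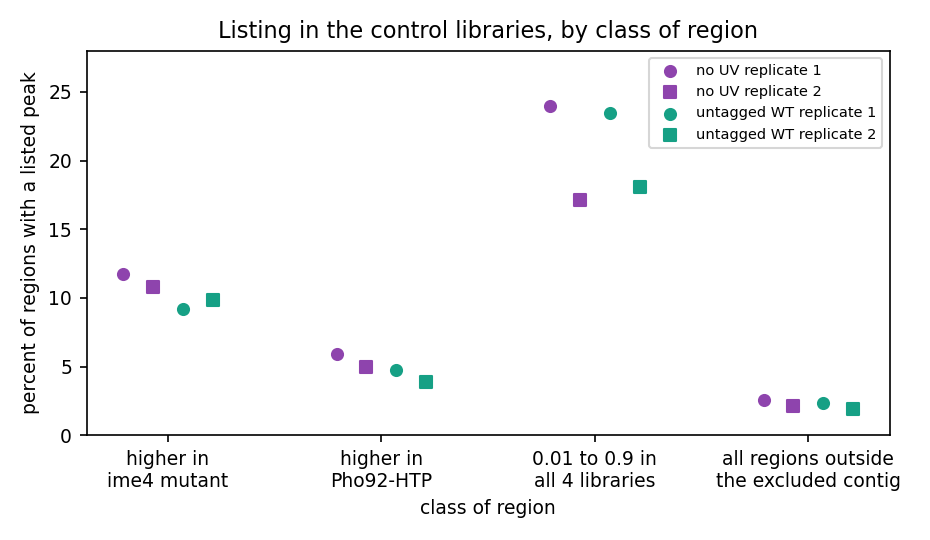
Percent of regions with a listed peak in each no UV and untagged WT library, by class of region, with 1 point per library. Members lie between 9.21% and 11.7%, the reverse class between 3.86% and 5.93%, regions weak in all 4 irradiated libraries between 17.1% and 24.0%, and all regions between 1.90% and 2.59%.

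Control scores at members were low. In all, 95 members (30.2%) were listed in at least 1 control library and 220 in none. With the factors of the peak lists, the highest control score at any member was 0.00699, so 0 members reached 0.01 in a control, and at 0 was a control score as high as the lower mutant value. Only NCSL01000024.1:65399-65434 was listed in all 4, at 4.03e-05 and 0.000422 in no UV and 3.60e-05 and 0.000835 in untagged WT. Its mutant scores of 0.154 and 0.139 were far above these values. Of the 107 members beside a stronger Pho92-HTP peak, 19 and 10 were listed in no UV and 17 and 20 in untagged WT. Of the 208 others, 18 and 24 were listed in no UV and 12 and 11 in untagged WT.

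The members could be tested between the controls, since the rule did not use them. limma was fitted to all 8 libraries over the 1291 regions with a listed peak in at least 2 control libraries, and 24 members were among these. It called 74 regions higher in no UV than in untagged WT (5.73%) and 24 lower (1.86%), and 0 members in either direction at an adjusted p under 0.05. At an unadjusted p under 0.05 there were 4 members, and the lowest adjusted p was 0.0729. The 24 members had a median difference of -0.18, with 9 above 0 and 15 below. With the factors that the deposited table gives for the controls in place of those in the peak lists, 1 member was called higher, and without untagged WT replicate 1, 1 was called lower.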

How the data were processed

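The authors deposited 1 peak list per library with a score per peak (h2w score) and a normalized score, and a table of peak counts and scaling factors. The factor, per the file headers, divides the score of the spike-in in Pho92-HTP replicate 1 by that in the library and is thus a ratio deposited by the authors, and the deposited table gives a peak count per library. cutadapt, Bowtie2 2.4.1 and ASM294v2, a fission yeast build, appear in the submitters' processing notes. The program used to call peaks was not given in the sources used here. Replicates were listed apart, not pooled. The factors in the control lists differ from the deposited table, which has those of no UV and untagged WT exchanged; the factors in the lists were used. The table gives 2138 peaks for no UV replicate 2, whose list holds 2462.

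A count test was planned only for counts. For these scores limma 3.58.1, run in R 4.3.3 with its mean-variance trend, was applied after adding 2.28e-05 to the normalized score (percentile 5 of all such scores) and taking log2. Differences are on that scale and are ime4 mutant minus Pho92-HTP or no UV minus untagged WT. A stronger peak is one that exceeds the region's higher value in its own genotype. Summit reads assume this form of the score and Gaussian smoothing with an SD of 15 nt. In the 4 irradiated Pho92-HTP libraries 63.3% to 74.1% of 32-nt peaks were then within 0.01 of a whole read. In the control libraries 91.3% to 92.4% were. Named regions are the 10 members with the highest lower mutant value, the 5 reverse regions likewise, those nearest to 0.01, those listed in all controls and the contigs with the highest share; the planned list of members with no Pho92-HTP peak within 50 nt was empty, and 5 others were chosen after seeing values. The members and lists were chosen with earlier results of these data known. The limma procedure was tested on simulated data: it recovered the size of the simulated differences, but for ime4 mutant against Pho92-HTP it called none of them when few regions changed, and only part of them when many did, so a region not called may still differ. Tables and figures were made in Python 3.11.15 with scipy 1.17.1, numpy 2.4.6, matplotlib 3.10.9 and pandas 2.3.3. Alternatives covered the thresholds, window, scaling, filter, pseudocount, joining, replicate block and leaving out each library.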

Additional observations from a re-analysis of the deposited data

How the results depend on the processing

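The number of members was 307 without spike-in scaling and 312 with the highest single score per region. It was 165 and 86 with 0.02 and 0.05 as the border, 110 with a ceiling of 0.001 for Pho92-HTP, 149 with scaling to library totals, 126 with regions within 50 nt merged, and 541 to 2290 with 1 library left out, where fewer libraries must pass by construction. The reverse class held 1472 regions at 0.05, 1497 with the ceiling of 0.001, 1543 without spike-in scaling, 1820 after merging and 3618 to 7156 with 1 library left out. A stronger Pho92-HTP peak was found for 24.1% of members within 25 nt, 45.7% within 100 nt, 100% if any listed Pho92-HTP peak counts, and 27.3% to 38.4% with 1 library left out. The highest local score was higher in the mutant for 68.9% within 25 nt, 47.0% within 100 nt and 62.5% to 67.6% with 1 library left out. Windows of 200 and 500 nt and the bands of strength were added after seeing the data.

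Control peaks within 50 nt were found for 64 and 59 members in no UV and 56 and 44 in untagged WT, on the opposite strand for 0 and 0 and for 1 and 0, and at a score of at least 0.01 for 0 in each. Regions called higher in the ime4 mutant numbered 200 without a filter, 7 with the filter at 0.9, 198 with trimmed mean scaling, 43 after merging, 245 with all 8 libraries in the fit and 12 to 86 with 1 library left out. Regions called lower numbered 577 with the filter at 0.9, 1085 without spike-in scaling, 1261 with trimmed mean scaling, 3843 with all 8 libraries and 759 to 2524 with 1 left out. Trimmed mean scaling moved the median difference of all regions from -2.98 to -0.70, and leaving out the spike-in moved it to -1.45. Members called higher numbered 207 with all 8 libraries and 73 to 142 under the other scalings, pseudocount, block and no filter. Leaving out 1 mutant library gave 82, and leaving out 1 Pho92-HTP library gave 0; the lone library is then assumed to vary like the other group. For no UV against untagged WT, regions called higher numbered 38 with a pseudocount of 0.01, 129 with the table's factors, 12 over all regions and 47 to 81 with 1 library left out. Those called lower numbered 5 with a pseudocount of 0.01, 5 over all regions and 14 to 56 with 1 left out. Except where stated, the cause was not tested.

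After merging within 50 nt, the differences of the 10 strongest members turned negative. A joined region includes the neighbour and any further peaks chained to it. On contig 55 the joined region scored 659 and 3464 in the Pho92-HTP libraries, against 15.5 and 21.1 for the neighbour. On contig 8 it scored 620 and 558, against 1.36 and 3.35 for the neighbour, so most of the joined score there came from other peaks. They were -4.53 and -3.76 on contig 24, -8.89 on contig 2, -4.38 on contig 5, -6.53 on contig 32, -1.28 on contig 23, -7.78 on contig 35, -1.06 on contig 17, -10.92 on contig 55 and -8.40 on contig 8. Replicate numbers are shared between groups, but same-numbered libraries did not deviate together (correlation -0.0121 over 8846 regions, 0.0394 over 1291). With a replicate block, 100 regions were called higher in the ime4 mutant and 2047 lower, 95 members among those higher, and 56 and 20 in no UV against untagged WT.

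With 2 libraries per group, unknown read totals and low summits, small differences between the genotypes cannot be resolved at single members.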
